A study of Mus musculus with 6 samples.

Results

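The genes described here are the autophagy genes whose symbols begin with Atg, the subunits of the vacuolar proton pump (V-ATPase) whose symbols begin with Atp6v, the single-letter cathepsins other than cathepsin S, and 12 further genes of autophagosomes and lysosomes, among them Sqstm1, Gabarap, Map1lc3b, Becn1, Lamp1, Lamp2, Cd68 and Tfeb. Of the 24346 gene symbols in each library, 70 matched these names, and 52 were kept, since in 3 or more of the 6 libraries their FPKM was 1 or higher. FPKM is the number of sequenced fragments of a gene divided by its transcript length and by the depth of the library. The libraries were made from donor-derived plasma cells of the mouse spleen, 3 from IgG1 plasma cells and 3 from IgM plasma cells. In both groups the donor cells were congenically marked B1-8germ B cells, which carry a heavy chain directed at the hapten NP, transferred into C57BL/6J wild-type hosts that received NP-CGG in alum. The plasma cells were sorted 7 days later. The labels give no age or sex and do not state that libraries of the same isotype are from different animals, so the tests speak only of the spread among these 6 libraries, part of which can be technical. The question of the design was how the IgG1 cells differed in gene expression from the IgM cells.

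Macroautophagy encloses cytoplasm in a double membrane, the autophagosome, which then fuses with a lysosome. A kinase complex and a lipid kinase complex start the membrane, a ubiquitin-like conjugation system attaches proteins of the ATG8 family to it, and cargo receptors such as p62 bind both cargo and ATG8 proteins. Lysosomes are acidified by the V-ATPase, a rotary pump with a cytosolic V1 sector that hydrolyses ATP and a membrane V0 sector that carries protons, and the low pH activates the cathepsins, which are proteases. In plasma cells, autophagy is known to limit the size of the endoplasmic reticulum and to support long-lived antibody secretion.

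The 52 genes comprised 8 of initiation and membrane supply, 10 of ATG8 conjugation, 5 ATG8 family members with the cargo receptor Sqstm1, 8 of the V1 sector, 7 of the V0 sector, 9 cathepsins, 3 lysosomal membrane proteins and the transcription factor gene Tfeb. The 18 symbols that were not kept were mostly tissue-restricted forms, such as the kidney pump subunits Atp6v0a4 and Atp6v1b1 and the osteoclast protease Ctsk. The highest value among them in any library was 1.98 FPKM, for Ctsw in IgM library 1. The values near the limit were well separated: the third-highest library of the kept gene closest to it, Ulk1, had 1.38 FPKM, and that of the closest gene left out, Atg4c, had 0.179 FPKM.

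The libraries carried the marks of plasma cells. The summed FPKM of 10 plasma cell markers was between 36903 and 39507 in the IgG1 libraries and between 44542 and 50400 in the IgM libraries, and all 10 passed the filter. Jchain weighed heavily in these sums, with 14210 to 16960 FPKM in IgG1 libraries and 24810 to 28580 FPKM in IgM libraries. The markers did not all go the same way, and Xbp1 had 6432 to 6862 FPKM in IgG1 libraries and 5354 to 6021 FPKM in IgM libraries. Like Jchain, Prdm1, Irf4, Tnfrsf17, Slamf7, Tnfrsf13b and Cd28 were lower in every IgG1 library than in any IgM library. Tnfrsf17 had 67.4 to 97.0 FPKM in IgG1 libraries and 568 to 713 FPKM in IgM libraries. For Sdc1 and Mzb1 the ranges of the isotypes overlapped. The isotype could not be checked, since 0 symbols of immunoglobulin chains were among those analysed here. Depth was estimated from the most common product of FPKM and transcript length among low values, read as a single fragment. It was about 15500000 fragments in each IgG1 library and 16200000 to 17800000 in the IgM libraries. The products were sorted into bins, which limits the precision, and whether depth differed between the groups was not tested. Of the genes tested, 74, 243 and 288 were at 0 in IgG1 libraries 1 to 3, and 36, 27 and 60 in IgM libraries 1 to 3. Across genes, the deviation of a library from the gene means followed transcript length, with a Spearman rho of -0.15, -0.18 and -0.24 in IgG1 libraries 1 to 3 and 0.30, 0.15 and 0.29 in IgM libraries 1 to 3. Short transcripts were thus relatively higher in the IgG1 libraries and long ones in the IgM libraries, and values after removal of this trend (length and GC correction) stand beside the fold changes it moved most, with those of all 52 genes in the plot of fold changes. In bulk samples such as these, fewer cells of a type and less RNA per cell cannot be told apart.

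The set as a whole differed little between the isotypes. Of the 52 genes, 3 were higher in IgG1 cells, where 4.26% of all genes tested were called higher, and 1 was lower, where 1.76% of all genes tested were called lower (limma, Benjamini-Hochberg adjusted over all 9087 genes tested, threshold 0.05), and all 4 encode or copy V-ATPase subunits. That is 7.69% of the genes, against 6.02% of all genes tested, so the share of calls was near that of the transcriptome. The same held before adjustment, with 11 of the 52 genes (21.2%) at a p under 0.05, against 22.2% of all genes tested. The median log2 fold change, IgG1 minus IgM, was -0.02 over these genes and -0.05 over all genes tested, and 40 of the 52 lay within 0.5 of 0. The median absolute log2 fold change was 0.226 over these genes, against 0.344 over all genes tested, and the median standard error was 0.178, against 0.333. The 3 IgG1 values lay entirely above or below the 3 IgM values for 12 of the 52 genes (23.1%), 3 above and 9 below, against 27.2% of all genes tested.

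**Figure D1:**
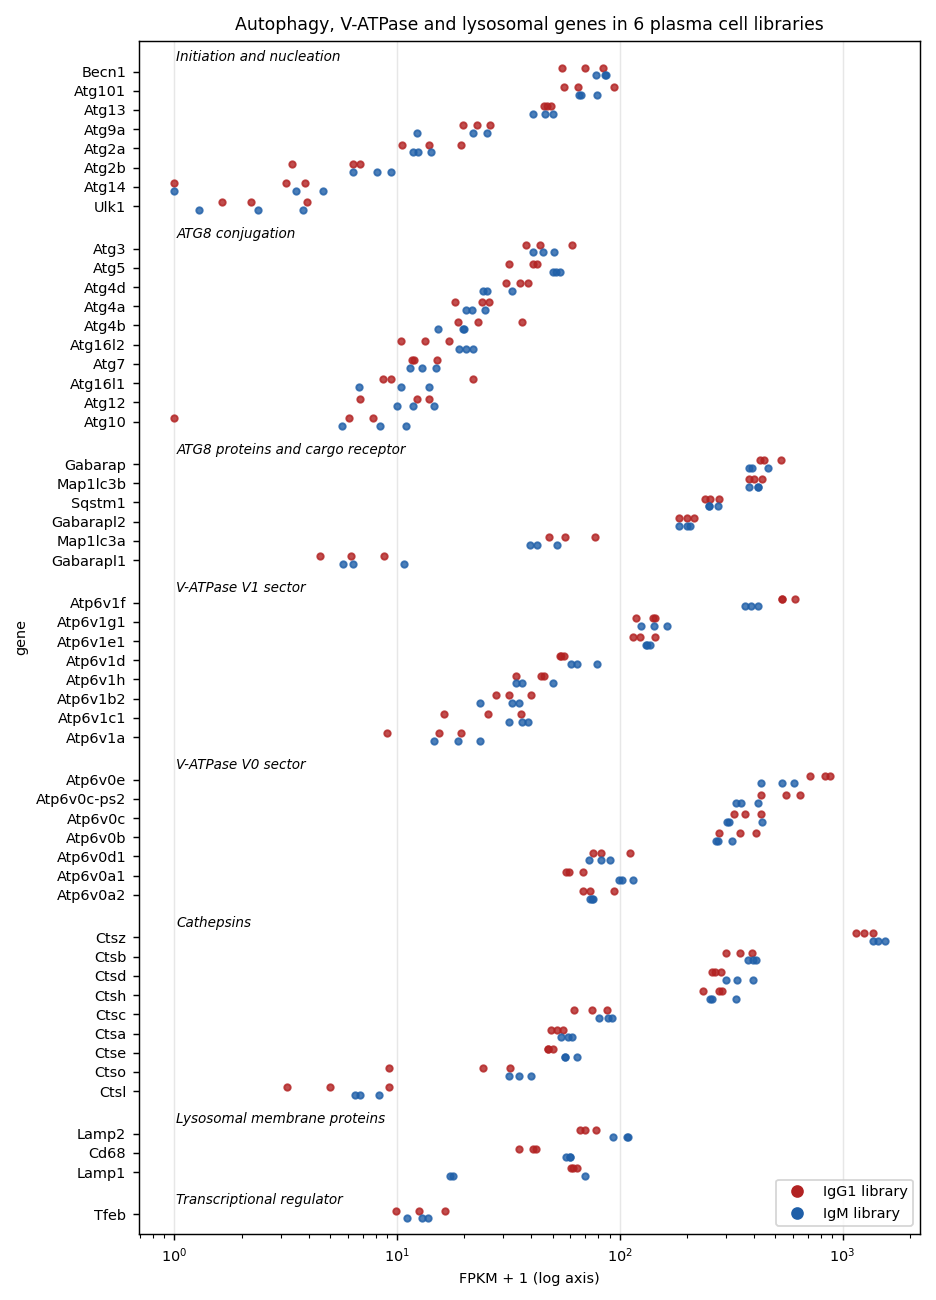
FPKM of the 52 genes in each library, as FPKM + 1 on a log axis, grouped by role. Red points are the 3 IgG1 libraries and blue points below them the 3 IgM libraries. For most genes the colours overlap, while Atp6v1f and Atp6v0e lie to the right in IgG1 cells and Atp6v0a1, Lamp2 and Cd68 to the left.

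**Figure D2:**
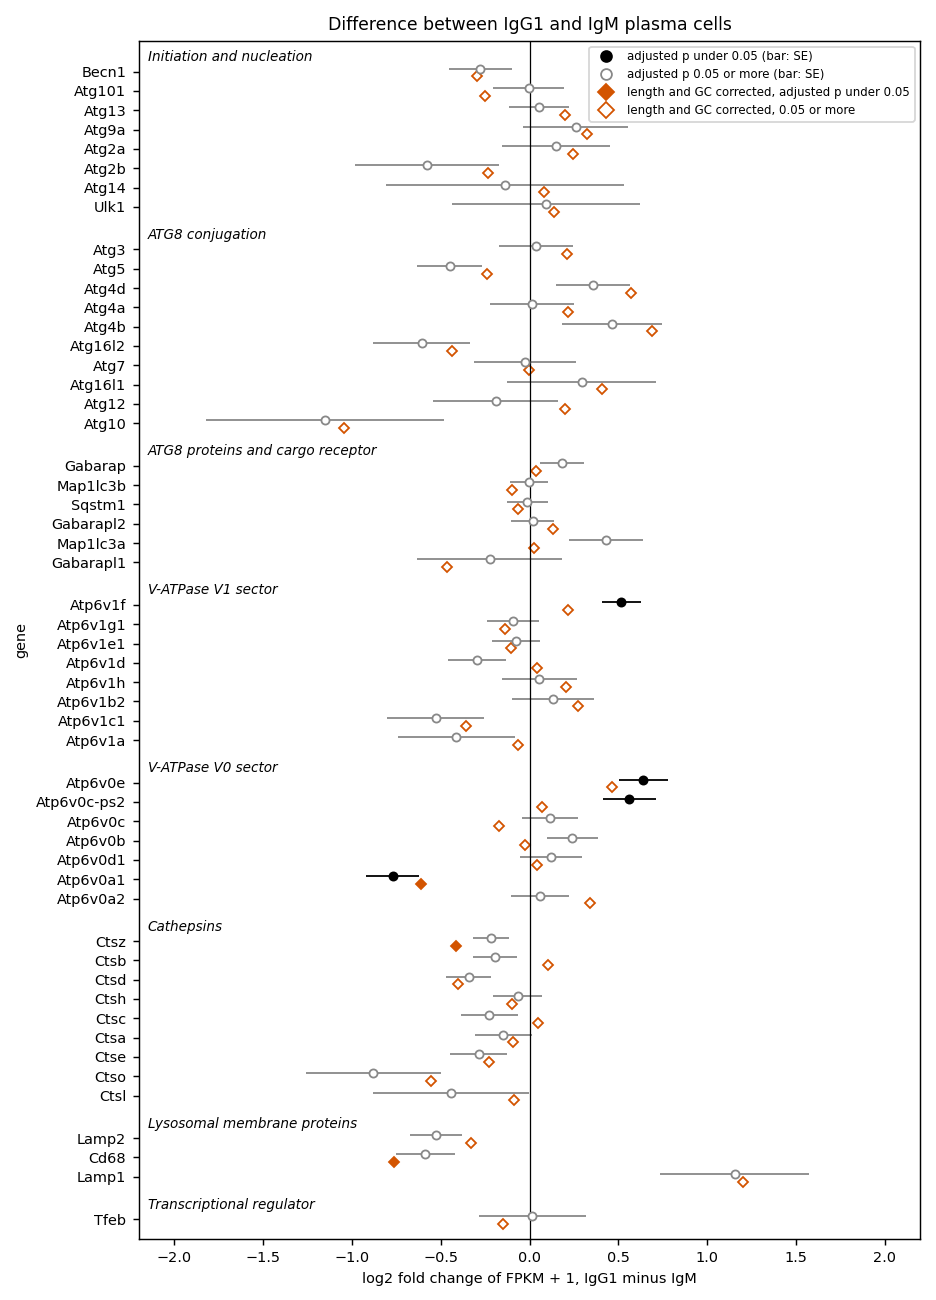
Log2 fold change of FPKM + 1, IgG1 minus IgM, for the same genes. Circles with bars are the fits and their standard errors, filled where the adjusted p was under 0.05, and orange diamonds are the values after length and GC correction. The filled circles are Atp6v1f, Atp6v0e and Atp6v0c-ps2 on the right and Atp6v0a1 on the left, and the filled diamonds are Atp6v0a1, Ctsz and Cd68, all on the left.

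Among the genes that start the autophagosome, 0 of 8 passed the test, and their median log2 fold change was 0.02. Becn1, the scaffold of the class III PI3 kinase complex, had 83.2, 54.2 and 68.7 FPKM in the IgG1 libraries, against 76.9, 84.5 and 85.5 FPKM in the IgM libraries, a log2 fold change of -0.28 (adjusted p = 0.392). Atg101 and Atg13, which with Ulk1 form the initiating kinase complex, were as close. Atg101 had 92.9, 55.0 and 64.0 FPKM in IgG1 cells, against 64.5, 66.0 and 77.9 FPKM in IgM cells (log2 fold change -0.01, adjusted p = 0.989, and -0.25 after correction for length and GC). Atg13 had 44.5, 46.0 and 48.3 FPKM in IgG1 cells, against 39.9, 45.2 and 49.1 FPKM in IgM cells (adjusted p = 0.895). The kinase gene Ulk1 itself was far lower than its partners, with 1.21, 2.92 and 0.627 FPKM in IgG1 cells, against 1.38, 0.292 and 2.78 FPKM in IgM cells. Atg14, which directs the PI3 kinase complex to autophagosome sites, was listed at 0 in IgG1 library 2 and in IgM library 3 and reached at most 2.84 FPKM in IgG1 cells and 3.64 FPKM in IgM cells. Of the genes that supply lipid to the growing membrane, the scramblase gene Atg9a ranged from 18.7 to 25.1 FPKM in IgG1 cells and from 11.3 to 24.2 FPKM in IgM cells. The lipid transfer gene Atg2a exceeded Atg2b in every library. Atg2a ranged from 9.53 to 18.3 FPKM in IgG1 cells and from 10.8 to 13.2 FPKM in IgM cells, and Atg2b from 2.36 to 5.81 FPKM in IgG1 cells and from 5.32 to 8.42 FPKM in IgM cells (log2 fold change -0.58, adjusted p = 0.45, and -0.24 after length and GC correction).

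The ATG8 conjugation genes likewise gave 0 calls among 10, with a median log2 fold change of -0.01. Atg3, the E2-like enzyme that transfers ATG8 proteins to lipid, had 42.6, 60.0 and 36.9 FPKM in IgG1 cells, against 39.9, 44.2 and 49.7 FPKM in IgM cells (adjusted p = 0.941). Atg5, which joined to Atg12 promotes that transfer, had 39.8, 41.3 and 30.8 FPKM in IgG1 cells, against 49.2, 50.8 and 53.0 FPKM in IgM cells. Its groups did not overlap, but the log2 fold change of -0.45 (SE 0.18) did not pass the test (adjusted p = 0.168), and after length and GC correction it was -0.24. The paralogs of the Atg5 partner gave values on both sides of 0. Atg16l2 had 16.1, 9.41 and 12.4 FPKM in IgG1 cells, against 21.0, 17.9 and 19.3 FPKM in IgM cells, without overlap (log2 fold change -0.61, SE 0.27, adjusted p = 0.216, and -0.44 after correction). Atg16l1, the form required for canonical autophagy, had 7.67, 8.38 and 21.0 FPKM in IgG1 cells, against 12.9, 5.73 and 9.44 FPKM in IgM cells (log2 fold change 0.29, adjusted p = 0.74, and 0.41 after correction).

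The proteases of the Atg4 family cleave ATG8 precursors and release ATG8 from lipid, and 3 of them passed the filter. Atg4d had 29.9, 37.7 and 34.5 FPKM in IgG1 cells, against 23.4, 31.7 and 24.4 FPKM in IgM cells (log2 fold change 0.36, adjusted p = 0.353, and 0.57 after correction). Atg4b, the most active family member towards LC3, had 17.8, 22.1 and 35.2 FPKM in IgG1 cells, against 18.9, 14.3 and 18.8 FPKM in IgM cells (log2 fold change 0.46, adjusted p = 0.37, and 0.69 after correction). Atg4a had 17.2 to 24.8 FPKM in IgG1 cells and 19.4 to 23.8 FPKM in IgM cells. The E1-like enzyme gene Atg7 ranged from 10.6 to 14.1 FPKM in IgG1 cells and from 10.4 to 14.0 FPKM in IgM cells, and Atg12 from 5.80 to 12.9 FPKM in IgG1 cells and from 9.02 to 13.6 FPKM in IgM cells. The log2 fold change of Atg12 was -0.19 as deposited and 0.20 after correction. The log2 fold change farthest below 0 among the 52 genes was that of Atg10, the E2-like enzyme for Atg12, at -1.15 (SE 0.67, adjusted p = 0.347). Atg10 had 6.75, 5.09 and 0 FPKM in IgG1 cells, against 7.40, 4.65 and 9.96 FPKM in IgM cells, so its distance rested on the IgG1 library listed at 0.

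Gabarap, Map1lc3b, Sqstm1 and Gabarapl2 were the most abundant autophagy genes, and of the 6 symbols of the ATG8 family with Sqstm1, 0 passed the test. Gabarap had 426, 441 and 530 FPKM in IgG1 cells, against 392, 461 and 379 FPKM in IgM cells (log2 fold change 0.18, adjusted p = 0.439, and 0.04 after correction). Map1lc3b, which encodes LC3B, had 380, 399 and 435 FPKM in IgG1 cells, against 381, 415 and 418 FPKM in IgM cells (log2 fold change -0.00, SE 0.11, adjusted p = 0.995). Sqstm1, which encodes the cargo receptor p62, had 240, 279 and 252 FPKM in IgG1 cells, against 252, 249 and 276 FPKM in IgM cells (log2 fold change -0.01, adjusted p = 0.959). Gabarapl2 had 213, 183 and 200 FPKM in IgG1 cells, against 183, 206 and 200 FPKM in IgM cells. In these 4 genes the ranges of the isotypes overlapped throughout. Map1lc3a had 47.2, 55.9 and 76.5 FPKM in IgG1 cells, against 41.3, 51.0 and 38.6 FPKM in IgM cells (log2 fold change 0.43, adjusted p = 0.249), and after length and GC correction its log2 fold change was 0.02. Gabarapl1 was the lowest of the family, between 3.51 and 7.70 FPKM in IgG1 cells and between 4.73 and 9.69 FPKM in IgM cells (log2 fold change -0.23, and -0.47 after correction).

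Across the 6 libraries the order of levels was Gabarap and Map1lc3b, whose ranges overlapped, then Sqstm1, Gabarapl2, Map1lc3a and Gabarapl1, each below the range of the one before. Of the summed FPKM of the 5 ATG8 genes, Gabarap made up 41.0% ± 1.33 in IgG1 cells and 38.6% ± 2.05 in IgM cells (SD, n = 3 each), and Map1lc3b 35.7% ± 1.00 in IgG1 cells and 38.2% ± 1.84 in IgM cells. Gabarapl2 made up 17.6% ± 2.07 in IgG1 cells and 18.5% ± 0.629 in IgM cells. These shares are a description and were not tested.

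The V-ATPase held all 4 calls, in 15 tested symbols of 23 listed, among them the processed pseudogene Atp6v0c-ps2. Of all genes tested, 6.02% were called. After length and GC correction 1 of the 15 was called, and 2.97% of all genes tested after correction. The cytosolic V1 sector gave 1 call among 8 genes. Atp6v1f, which encodes subunit F of the central rotor (chromosome 6, 29467718 to 29470512, mm10), had 532, 612 and 531 FPKM in IgG1 cells, against 365, 417 and 387 FPKM in IgM cells. The means were 558 ± 46.5 FPKM in IgG1 cells and 389.7 ± 26.5 FPKM in IgM cells (SD, n = 3 each), 1.43-fold higher in IgG1 cells, with a log2 fold change of 0.52 (SE 0.11, limma adjusted p = 0.0203). All IgG1 libraries lay above all IgM libraries. After length and GC correction the log2 fold change was 0.22 (adjusted p = 0.278), and the call was lost without IgG1 library 2, IgM library 1 or IgM library 3 (adjusted p = 0.0812, 0.104 and 0.0795).

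The other V1 genes did not pass the test, and their log2 fold changes were on both sides of 0, with a sector median of -0.08. The stalk genes Atp6v1g1 and Atp6v1e1 followed Atp6v1f in level. Atp6v1g1 had 117, 143 and 140 FPKM in IgG1 cells, against 123, 141 and 163 FPKM in IgM cells, and Atp6v1e1 had 122, 113 and 143 FPKM in IgG1 cells, against 132, 135 and 129 FPKM in IgM cells. Atp6v1d, the rotor shaft, had 55.2, 53.5 and 52.6 FPKM in IgG1 cells, against 62.9, 77.9 and 59.4 FPKM in IgM cells, without overlap (log2 fold change -0.30, adjusted p = 0.319), and after correction its log2 fold change was 0.04. The catalytic subunit gene Atp6v1a had the lowest mean of the sector, with 14.5, 18.4 and 8.03 FPKM in IgG1 cells, against 17.7, 22.5 and 13.6 FPKM in IgM cells (log2 fold change -0.41, adjusted p = 0.515), and after correction its log2 fold change was -0.06. Its partner in the catalytic ring, Atp6v1b2, had 30.8, 39.1 and 26.8 FPKM in IgG1 cells, against 34.2, 22.5 and 31.7 FPKM in IgM cells. Atp6v1c1, which takes part in holding V1 to V0, ranged from 15.2 to 34.9 FPKM in IgG1 cells and from 30.9 to 37.7 FPKM in IgM cells (log2 fold change -0.53, adjusted p = 0.288, and -0.36 after correction). Atp6v1h, a regulatory subunit of V1, ranged from 33.3 to 44.5 FPKM in IgG1 cells and from 33.2 to 48.9 FPKM in IgM cells.

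The membrane V0 sector gave 3 calls among 7 symbols, 2 higher and 1 lower in IgG1 cells. Atp6v0e, which encodes the small subunit e1 (chromosome 17, 26663231 to 26699647, mm10), had 713, 837 and 880 FPKM in IgG1 cells, against 429, 605 and 533 FPKM in IgM cells. The means were 810.0 ± 86.9 FPKM in IgG1 cells and 522 ± 88.1 FPKM in IgM cells (SD, n = 3 each), 1.55-fold higher in IgG1 cells, with a log2 fold change of 0.64 (SE 0.14, limma adjusted p = 0.0204). All IgG1 libraries lay above all IgM libraries. After correction the log2 fold change was 0.46 (adjusted p = 0.0682), and the call was lost without IgG1 library 2 or 3 or IgM library 1 or 3 (adjusted p = 0.0755, 0.0775, 0.0933 and 0.0623).

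Atp6v0c-ps2 is annotated as a processed pseudogene of the proteolipid gene Atp6v0c, whose product forms most of the proton-carrying ring (chromosome 6, 37806086 to 37806550). It had 431, 558 and 646 FPKM in IgG1 cells, against 332, 416 and 349 FPKM in IgM cells, a log2 fold change of 0.56 (SE 0.15, limma adjusted p = 0.0492), and after correction 0.07 (adjusted p = 0.776). Its call was lost without IgG1 library 2 or 3 or IgM library 1 or 3 (adjusted p = 0.126, 0.145, 0.205 and 0.158). The parent Atp6v0c had 366, 323 and 430 FPKM in IgG1 cells, against 300, 434 and 308 FPKM in IgM cells (log2 fold change 0.11, adjusted p = 0.736, and -0.17 after correction). The pseudogene and the parent share sequence, so how fragments were divided between them is uncertain and neither value can be taken as the level of that locus alone.

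Atp6v0a1 was the only one of the 52 genes lower in IgG1 cells at the threshold. It encodes subunit a1 (chromosome 11, 101009452 to 101063719, mm10), 1 of 4 forms of the large subunit that faces the proteolipid ring and helps decide in which membrane the pump sits. It had 56.4, 57.8 and 67.4 FPKM in IgG1 cells, against 113, 101 and 97.9 FPKM in IgM cells. The means were 60.5 ± 5.98 FPKM in IgG1 cells and 103.9 ± 8.09 FPKM in IgM cells (SD, n = 3 each), 1.72-fold lower in IgG1 cells, with a log2 fold change of -0.77 (SE 0.15, limma adjusted p = 0.0133). The highest IgG1 library lay below the lowest IgM library. Of the 4 called genes it alone kept its call after length and GC correction, at a log2 fold change of -0.61 (adjusted p = 0.0462). The call was lost without IgG1 library 2 (adjusted p = 0.0527) or IgM library 1 (adjusted p = 0.0923).

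The other forms of subunit a did not move with it. Atp6v0a2 had 67.6, 72.1 and 93.5 FPKM in IgG1 cells, against 75.0, 72.4 and 74.2 FPKM in IgM cells (log2 fold change 0.06, adjusted p = 0.871, and 0.34 with an adjusted p of 0.337 after correction). Tcirg1, which encodes subunit a3 and whose symbol does not begin with Atp6v, had 21.5, 18.7 and 38.0 FPKM in IgG1 cells, against 24.9, 25.5 and 20.3 FPKM in IgM cells (log2 fold change 0.08, adjusted p = 0.899), and Atp6v0a4 was listed at 0 in all 6 libraries. Of the summed FPKM of these genes, Atp6v0a1 made up 38.8%, 38.9% and 33.9% in IgG1 cells, against 53.1%, 50.7% and 50.9% in IgM cells. Atp6v0a2 made up 46.5%, 48.5% and 47.0% in IgG1 cells, against 35.2%, 36.4% and 38.6% in IgM cells. Atp6v0a2 was therefore the largest share in each IgG1 library and Atp6v0a1 in each IgM library, and the ratio of Atp6v0a1 to Atp6v0a2 was 0.834, 0.803 and 0.721 in IgG1 cells, against 1.51, 1.39 and 1.32 in IgM cells. A ratio of FPKM within a library does not depend on the scaling between libraries. These shares were computed after the values were seen and are given without a test. For subunits B, C, d, E, G and e a single paralog (Atp6v1b2, Atp6v1c1, Atp6v0d1, Atp6v1e1, Atp6v1g1 and Atp6v0e) held at least 99.3% of the FPKM in every library of both groups.

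**Figure D3:**
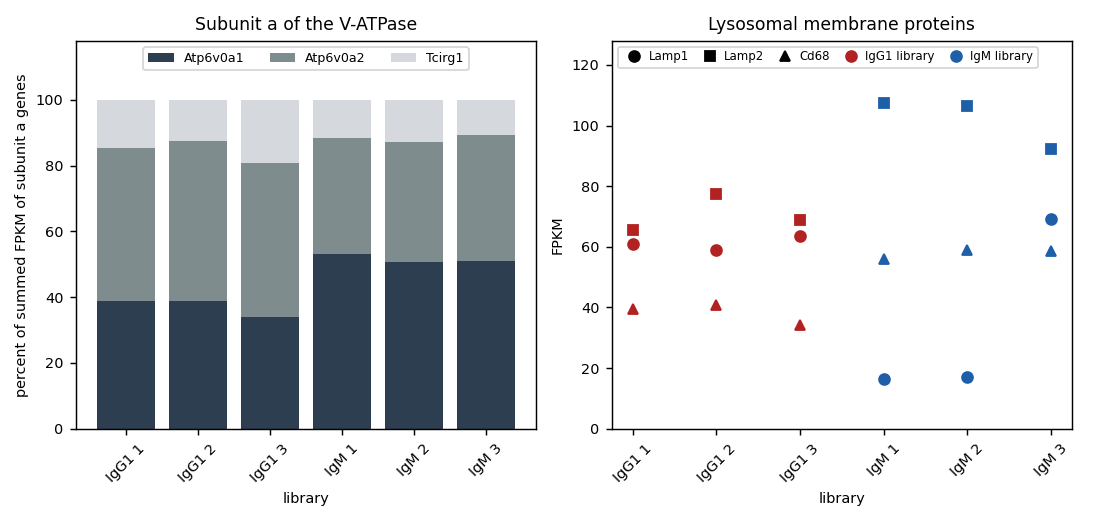
Left, the share of each subunit a gene in the summed FPKM of Atp6v0a1, Atp6v0a2 and Tcirg1, by library. Right, FPKM of Lamp1 (circles), Lamp2 (squares) and Cd68 (triangles), red for IgG1 and blue for IgM libraries. Atp6v0a1 holds 33.9% to 38.9% in IgG1 libraries and 50.7% to 53.1% in IgM libraries, and Lamp1 is low in IgM libraries 1 and 2.

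The remaining V0 genes, Atp6v0b and Atp6v0d1, did not pass the test. Atp6v0b, a second proteolipid, had 279, 345 and 406 FPKM in IgG1 cells, against 270, 318 and 276 FPKM in IgM cells (log2 fold change 0.24, adjusted p = 0.364), and after correction its log2 fold change was -0.03, on the other side of 0. Atp6v0d1, which encodes a form of subunit d, had 80.9, 74.7 and 110 FPKM in IgG1 cells, against 72.0, 89.2 and 81.0 FPKM in IgM cells (adjusted p = 0.748). The log2 fold change was above 0 for 6 of the 7 V0 symbols as deposited, but for 4 after length and GC correction, after quantile normalization or without IgG1 library 3 and for 3 after rescaling without Jchain. That rescaling put the median of all genes tested at -0.25, against -0.05 as deposited, and the V0 median at -0.11, against 0.12 as deposited.

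The direction of the calls followed transcript length. The 3 symbols called higher had median transcript lengths of 465 to 772 nt, Atp6v0a1 had 3890 nt, and the genes not called had a median of 2216 nt. With the 52 genes ordered by length and split into 4 bins of 13, the median log2 fold change was 0.11 in the bin of shortest transcripts and -0.19 in that of the longest, and after correction it was -0.10 in the shortest and 0.13 in the longest. After correction 3 of the 52 genes passed the test (5.77%, against 2.97% of the genes tested), Atp6v0a1, Ctsz and Cd68, all lower in IgG1 cells. Of the genes tested after correction, 2.04% were called higher and 0.924% lower in IgG1 cells.

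**Figure D4:**
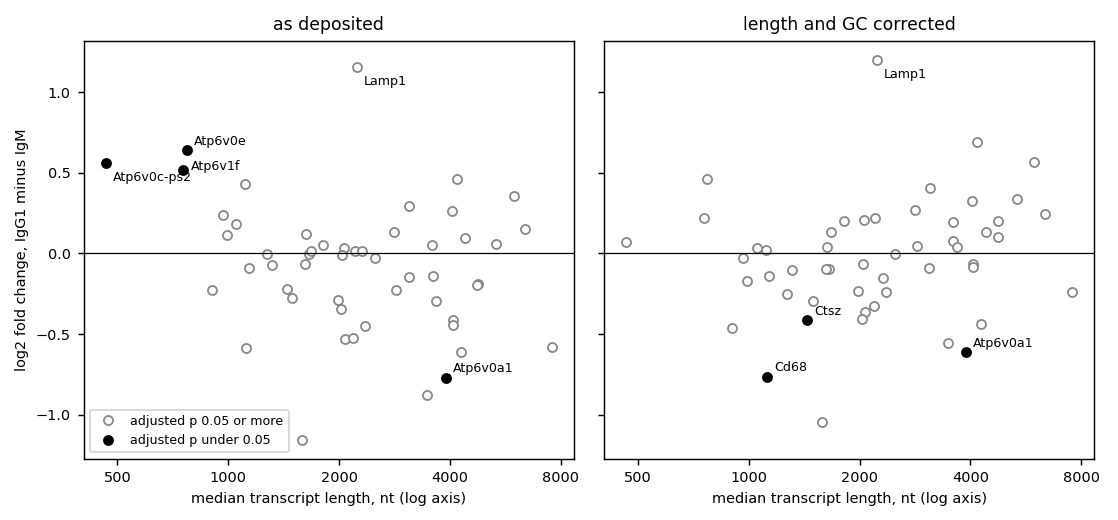
Log2 fold change, IgG1 minus IgM, against median transcript length on a log axis for the 52 genes, as deposited (left) and after length and GC correction (right). Filled points had an adjusted p under 0.05. As deposited, the 3 filled points above 0 are at 465 to 772 nt, while after correction the filled points are Cd68, Ctsz and Atp6v0a1, all below 0.

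The cathepsins gave 0 calls among 9, and each of the 9 had a log2 fold change below 0, with a median of -0.23, against -0.05 over all genes tested. That pattern depended in part on the processing: 2 of the 9, Ctsb and Ctsc, were above 0 after length and GC correction, where the median was -0.10. Ctsz, which encodes the carboxypeptidase cathepsin Z (also called X), was the most abundant of all 52 genes. It had 1363, 1143 and 1248 FPKM in IgG1 cells, against 1371, 1549 and 1442 FPKM in IgM cells, means of 1252 ± 110 FPKM in IgG1 cells and 1454 ± 89.5 FPKM in IgM cells (SD, n = 3 each). The groups did not overlap, with IgG1 library 1 and IgM library 1 nearly equal, and the log2 fold change was -0.22 (SE 0.10, adjusted p = 0.24), or -0.42 after correction (adjusted p = 0.0275). It made up 53.6% ± 2.34 of the summed cathepsin FPKM in IgG1 cells and 53.5% ± 1.00 in IgM cells.

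Ctsd, which encodes the aspartic protease cathepsin D, had 258, 265 and 283 FPKM in IgG1 cells, against 335, 397 and 298 FPKM in IgM cells, without overlap. Its log2 fold change was -0.34 (SE 0.13, adjusted p = 0.135), or -0.40 after correction (adjusted p = 0.0752). Its exons overlap those of another annotated gene on the same strand, Gm49369. The other aspartic cathepsin, Ctse, had 48.9, 46.6 and 46.7 FPKM in IgG1 cells, against 55.8, 63.2 and 55.4 FPKM in IgM cells, also without overlap (log2 fold change -0.29, adjusted p = 0.319). Over the 6 libraries the ranges of the cysteine proteases Ctsb and Ctsh overlapped that of Ctsd. Within each library Ctsb was above Ctsd, though nearly equal to it in IgM library 2. Ctsb had 393, 345 and 299 FPKM in IgG1 cells, against 408, 397 and 376 FPKM in IgM cells (adjusted p = 0.385), and Ctsh had 236, 279 and 285 FPKM in IgG1 cells, against 259, 252 and 332 FPKM in IgM cells (adjusted p = 0.817).

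Ctsc, the activator of serine proteases of granules, had 61.5, 74.1 and 86.3 FPKM in IgG1 cells, against 79.7, 87.6 and 90.7 FPKM in IgM cells (adjusted p = 0.461). Ctsa, a carboxypeptidase that also protects lysosomal sialidase and galactosidase, had 54.7, 48.0 and 51.4 FPKM in IgG1 cells, against 57.8, 60.2 and 53.2 FPKM in IgM cells (adjusted p = 0.643). Ctso had the largest distance of the family, with 23.3, 31.2 and 8.17 FPKM in IgG1 cells, against 39.0, 30.6 and 34.4 FPKM in IgM cells (log2 fold change -0.88, SE 0.38, adjusted p = 0.202), or -0.56 after correction, and its groups overlapped. Ctsl was the lowest, between 2.19 and 8.18 FPKM in IgG1 cells and between 5.46 and 7.33 FPKM in IgM cells (log2 fold change -0.44, and -0.09 after correction). By range over the 6 libraries Ctsz stood above Ctsb, Ctsd and Ctsh, which overlapped, and these stood above Ctsc, Ctsa and Ctse.

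Lamp1 and Lamp2 encode the most abundant glycoproteins of the lysosomal membrane, and Cd68 a related protein of late endosomes and lysosomes that is high in macrophages. In limma 0 of the 3 passed the test, and all 3 had an unadjusted p under 0.05. Lamp2 had 65.4, 77.5 and 68.8 FPKM in IgG1 cells, against 107.5, 106 and 92.4 FPKM in IgM cells, means of 70.6 ± 6.23 FPKM in IgG1 cells and 102 ± 8.43 FPKM in IgM cells (SD, n = 3 each). The groups did not overlap, with a log2 fold change of -0.53 (SE 0.15, adjusted p = 0.0562), or -0.33 after correction (adjusted p = 0.275). Cd68 had 39.6, 40.9 and 34.2 FPKM in IgG1 cells, against 56.1, 58.8 and 58.5 FPKM in IgM cells, again without overlap, with a log2 fold change of -0.59 (SE 0.17, adjusted p = 0.0598), or -0.76 after correction (adjusted p = 0.0332).

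Macrophage and monocyte markers were low and mixed beside Cd68. The summed FPKM of the 14 markers was 10.6 to 16.0 in IgG1 cells and 14.6 to 26.7 in IgM cells, ranges that overlap. Of the 14, 5 passed the filter. Csf1r, the receptor gene of the macrophage growth factor, had 0, 0 and 0.0162 FPKM in IgG1 cells, against 2.14, 1.11 and 1.57 FPKM in IgM cells, without overlap. Lyz2, the lysozyme gene, had 5.07, 0.160 and 0.309 FPKM in IgG1 cells, against 4.89, 4.77 and 8.44 FPKM in IgM cells. The mannose receptor gene Mrc1 had 4.44, 9.75 and 4.46 FPKM in IgG1 cells, against 10.1, 4.75 and 5.62 FPKM in IgM cells. Of the complement genes, C1qb had 1.07, 2.54 and 9.06 FPKM in IgG1 cells, against 3.38, 3.02 and 1.74 FPKM in IgM cells, and C1qc reached at most 3.37 FPKM in IgG1 cells and 3.42 FPKM in IgM cells. The ranges of these 4 overlapped between the isotypes. Of the other 9 markers 7 stayed under 1 FPKM in every library, among them Cd163 at 0 throughout and Adgre1, which encodes F4/80, at 0 in all but IgM library 3 (0.0171 FPKM). C1qa and Vcam1 each passed 1 FPKM in a single IgM library. Vcam1 had 0.0188, 0.0193 and 0 FPKM in IgG1 cells, against 0.253, 0.231 and 1.09 FPKM in IgM cells, without overlap, as for Csf1r. The part of other cells in the Cd68 value was not tested. The 9 B cell markers, 4 of which passed the filter, summed to 102.5 to 131 FPKM in IgG1 cells and 145 to 164 FPKM in IgM cells, with Pax5 at 0 in all 6 libraries, and their part in these values was not tested either.

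Lamp1 was split within the IgM group. It had 60.8, 59.1 and 63.4 FPKM in IgG1 cells, against 16.3, 16.9 and 69.1 FPKM in IgM cells, so the IgG1 libraries were close together and IgM library 3 stood above all of them. The log2 fold change was 1.15 (SE 0.42, adjusted p = 0.132), and without IgM library 3 it was 1.82 (adjusted p = 0.00144). The ratio of Lamp2 to Lamp1 was 1.08, 1.31 and 1.08 in IgG1 cells, against 6.58, 6.29 and 1.34 in IgM cells. FPKM per symbol do not show how fragments were divided between isoforms or with other loci. Whether the 16.3 and 16.9 FPKM of IgM libraries 1 and 2, and the ratios built on them, give the full level of Lamp1 is therefore uncertain, and these libraries do not show whether they or IgM library 3 departed from the usual IgM level. The exons of Lamp1 overlap those of the neighbouring gene Grtp1, which had at most 0.0578 FPKM in IgG1 cells and 0.111 FPKM in IgM cells. In all, the exons of 12 of the 52 genes overlap another protein-coding gene, and the use of strand in counting is not given in the sources used here.

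Tfeb encodes a transcription factor that, when it enters the nucleus, switches on lysosomal and autophagy genes through an E-box of the form CACGTG. It had 8.93, 11.6 and 15.3 FPKM in IgG1 cells, against 10.1, 12.7 and 12.0 FPKM in IgM cells, a log2 fold change of 0.01 (SE 0.30, adjusted p = 0.984), or -0.15 after correction. Its mRNA level does not show how much of the protein is in the nucleus.

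The promoters shown here are those of the 3 called protein-coding genes and of Lamp1, which had the most copies of the E-box. Each sequence runs from 100 bases before to 20 bases after the RefSeq transcript start (GRCm38.p6), read along the gene's strand, here the plus strand for all 4, with CACGTG in capitals.
Atp6v0a1, chr11:101010298-101010417: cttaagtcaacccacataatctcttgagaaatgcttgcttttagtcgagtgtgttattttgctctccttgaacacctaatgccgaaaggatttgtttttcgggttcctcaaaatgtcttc
Atp6v0e, chr17:26676296-26676415: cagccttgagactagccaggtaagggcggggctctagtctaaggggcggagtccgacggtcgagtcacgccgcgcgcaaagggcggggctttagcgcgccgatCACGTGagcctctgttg
Atp6v1f, chr6:29467683-29467802: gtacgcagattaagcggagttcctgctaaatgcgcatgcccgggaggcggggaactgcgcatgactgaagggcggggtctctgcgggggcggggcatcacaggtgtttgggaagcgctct
Lamp1, chr8:13159061-13159180: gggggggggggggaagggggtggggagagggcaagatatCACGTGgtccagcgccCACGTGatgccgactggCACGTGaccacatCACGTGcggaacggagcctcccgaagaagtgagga

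CACGTG, which reads the same on both strands, was searched in windows from 250 bases before to 50 after the start. RefSeq entries were found for 39 of the 52 genes, with 45 promoters. The E-box was in 12 of the 45 promoters (26.7%), against 10.5% of the promoters of genes tested and 7.15% of all promoters. The longer form TCACGTGA, which contains the core, was in 6 of the 45 (13.3%), against 2.1% of the promoters of genes tested and 0.974% of all promoters. Lamp1 held 4 copies, 61, 45, 28 and 15 bases before the start, and Atg3, Atp6v0b, Ctsa and Ctsd held more than 1. Those with a single copy were Atg14, Atg5, Atg7, Atp6v0d1, Atp6v0e, Atp6v1a and Ctsl, and Atp6v0a1, Atp6v1f and Tfeb had none in these windows. The 12 genes with the core had a median log2 fold change of -0.08 and 1 call (Atp6v0e), and the 27 without it had -0.01 and 2 calls. A match is a description of the letters and not evidence of binding.

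**Figure D5:**
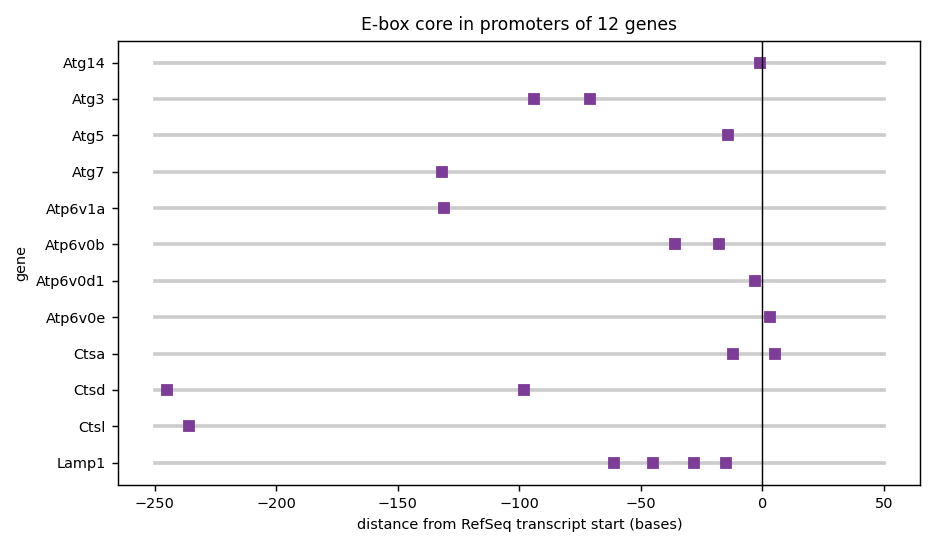
Positions of CACGTG (purple squares) in the promoters of the 12 genes that hold it, in bases from the RefSeq transcript start, with the window searched in grey. Lamp1 holds 4 copies within 61 bases before the start, and Ctsa, Ctsd, Atp6v0b and Atg3 hold 2 each.

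Other genes of the same pathways were read from the same fit. Of 144 listed in 8 groups, 120 were tested and 5 passed (4.17%, against 6.02% of all genes tested), 3 higher and 2 lower in IgG1 cells. Among the 15 tested cargo receptors and genes of ER-phagy and mitophagy, Ccpg1 passed, and 14 of the 15 had a log2 fold change below 0. Of all 9087 genes tested, 4211 had one above 0. The median of the 15 was -0.40, against -0.05 over all genes tested. After correction it was -0.34, over those with a known transcript length, against 0.02 over all genes tested. Ccpg1 encodes a receptor of the endoplasmic reticulum membrane that binds ATG8 proteins and the initiation complex. It had 75.0, 62.1 and 63.9 FPKM in IgG1 cells, against 137, 116 and 108 FPKM in IgM cells, with a log2 fold change of -0.84 (SE 0.15, limma adjusted p = 0.011), or -0.63 after correction (adjusted p = 0.0387). The groups did not overlap, and the call held in 16 of the 19 alternative settings. It was lost without IgM library 1 (adjusted p = 0.0744), with no filter (0.0703) and with no intensity trend (0.139).

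Among the 14 genes of autophagosome fusion, Vamp8 passed and was higher in IgG1 cells. Vamp8 encodes the lysosomal SNARE that pairs with syntaxin 17 on autophagosomes. It had 291, 278 and 333 FPKM in IgG1 cells, against 184, 223 and 207 FPKM in IgM cells (log2 fold change 0.55, SE 0.12, limma adjusted p = 0.0259), and after correction 0.45 (adjusted p = 0.048). Its call held in 2 of the 6 fits that left out a library. Among the 32 lysosomal hydrolases, Lgmn, the asparaginyl protease that processes cathepsins, was lower in IgG1 cells, with 231, 197 and 212 FPKM, against 340, 272 and 283 FPKM in IgM cells (log2 fold change -0.48, SE 0.13, limma adjusted p = 0.048). Of 23 genes of the lysosomal membrane and of transport to it, Tmem192 and Grn were higher in IgG1 cells. Tmem192, a lysosomal membrane protein, had 192, 179 and 206 FPKM in IgG1 cells, against 120, 142 and 142 FPKM in IgM cells (limma adjusted p = 0.0406). Grn, which encodes progranulin, had 397, 410 and 415 FPKM in IgG1 cells, against 308, 326 and 289 FPKM in IgM cells (limma adjusted p = 0.0443). After correction the adjusted p was 0.0565 for Lgmn, 0.12 for Tmem192 and 0.0624 for Grn. The Lgmn call held in 1 of the 6 fits that left out a library, and the Tmem192 and Grn calls in 0, with adjusted p of up to 0.231, 0.202 and 0.185.

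The remaining groups gave 0 calls. The 16 further genes of initiation and of the phosphoinositide steps had a median log2 fold change of -0.30, and of -0.14 after length and GC correction. Over all genes tested the medians were -0.05 and 0.02. In this group Wdr45, a phosphoinositide-binding propeller, averaged 41.0 FPKM in IgG1 cells and 53.7 FPKM in IgM cells (adjusted p = 0.317). Vmp1, a lipid scramblase of the endoplasmic reticulum, had means of 121 ± 11.7 FPKM in IgG1 cells and 90.1 ± 7.91 FPKM in IgM cells (adjusted p = 0.11), and after correction it passed the test (log2 fold change 0.68, adjusted p = 0.0462). The 10 accessory and assembly genes of the V-ATPase had a median log2 fold change of -0.01, and of 0.10 after correction. The accessory subunit Atp6ap1 averaged 230.1 FPKM in IgG1 cells and 245.5 FPKM in IgM cells (adjusted p = 0.737), and Atp6ap2 84.7 FPKM in IgG1 cells and 87.4 FPKM in IgM cells (adjusted p = 0.886). Among the 4 tested cathepsin inhibitors, Cst3, the secreted cystatin C gene, averaged 812 FPKM in IgG1 cells and 768 FPKM in IgM cells (adjusted p = 0.719), and Cstb, a cytosolic inhibitor, 171 FPKM in IgG1 cells and 147 FPKM in IgM cells (adjusted p = 0.415). Among the 6 relatives and regulators of Tfeb, Ywhah, a 14-3-3 gene, averaged 133 FPKM in IgG1 cells and 156 FPKM in IgM cells (adjusted p = 0.307), and Tfe3 10.8 FPKM in IgG1 cells and 12.8 FPKM in IgM cells (adjusted p = 0.751).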

How the data were processed

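RNA of 3 IgG1 and 3 IgM plasma cell libraries was measured by SMART-Seq HT and Nextera XT sequencing, per the labels' protocols. The deposited values are FPKM per gene symbol, per the file headers. The submitters' processing notes name Cufflinks 2.2.1, Cuffdiff, Bowtie2 2.3.5.1, TopHat2 2.1.1 and the build mm10. For annotation, strand use and between-library scaling the sources used here give nothing. Read counts were not used, so depth was estimated from the most common product of FPKM and transcript length among low values.

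Groups were compared with limma 3.58.1 in R 4.3.3 (intensity trend) on log2(FPKM + 1), which understates changes of low genes, over the 9087 genes whose FPKM was 1 or higher in 3 or more libraries, with Benjamini-Hochberg adjustment over all of them. Transcript length, GC content and gene coordinates came from GENCODE vM21 basic (GRCm38); the corrected fit removed the trend on both in each library. The fit was tested on simulated data. Every gene of the set may be named; called genes, genes without overlap and the most abundant of each role have values, as do called genes, or else the most abundant, of the related lists. Tcirg1, the marker genes Csf1r, Lyz2, Mrc1, C1qb and C1qc and the plasma cell markers are named outside this rule, after their values were seen. The genes and lists were chosen with earlier results of these data known. Alternatives are in the closing section.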

Additional observations from a re-analysis of the deposited data

How the results depend on the processing

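Over 19 alternative settings, the number of the 52 genes called was 4 as reported, 0 with no filter, 0 without the intensity trend and 0 to 4 when 1 library was left out; in the other settings it stayed between 3 and 6. All genes called numbered 547 as reported, 6 with no filter, 8 without the trend, 260 after length and GC correction and 108 to 645 when 1 library was left out. The related lists gave 5 calls as reported, 2 with a pseudocount of 0.1, 0 with no filter, 8 with a filter at 5, 12 after rescaling without Jchain, 0 without the trend, 3 after length and GC correction and 0 to 5 when 1 library was left out. The median log2 fold change of the set, -0.02, became 0.0557 with median centring, -0.11 with quantile normalization and -0.24 after rescaling, and ran from -0.0973 to 0.0273 when 1 library was left out. The setting with no filter adds low genes to both the fit and the adjustment. The cause of these moves was not tested.

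Scaling moved the directions. Genes higher in IgG1 cells made up 70.7% of all calls as deposited, 80.6% with median centring, 48.5% with quantile normalization and 31.1% after rescaling; the set's calls were then 3 higher and 1 lower, 3 and 1, 0 and 4, and 1 and 5. Atp6v0a1 was called in 15 of the 19 alternatives, Atp6v0e in 11, Atp6v1f in 10 and Atp6v0c-ps2 in 7, and 43 of the 52 genes in none. Calls were gained in at least 1 setting by Lamp2, Cd68, Lamp1, Ctsd and Ctsz. The sign of the log2 fold change turned in 29 genes, never where either fit called the gene.

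Whether the replicate numbers pair the libraries is not known, as the labels do not say. Across genes, deviations from the group means had correlations of 0.101, -0.0315 and -0.0006 between same-numbered libraries. Between differently numbered libraries they ran from -0.0982 to 0.0958. With 3 libraries per group these values cannot decide whether the libraries are paired. With the replicate block, 4 of the 52 genes and 586 genes in all were called, against 4 and 547 without it. With the block on corrected values 6 and 427 were called, against 3 and 260 without it. Ulk1, Atg14 and Atg10, which were low or listed at 0 in a library, had standard errors of 0.53, 0.67 and 0.67. The median over the 52 genes was 0.178, and the part of depth in this was not tested.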
